A study of Mus musculus with 24 samples.

Results

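Gene expression in the tibialis anterior, the shin muscle that lifts the foot and is made mostly of fast fibres, was compared between aged and young male C57BL/6 mice, an inbred laboratory strain. Both groups had received saline (vehicle) under the skin once a day for 7 days, and the muscle was taken 6.5 h after the last injection. Aged vehicle mice were 24 months old and young vehicle mice 4 months old, with 6 libraries of polyadenylated RNA in each group, 12 of the 24 libraries of the series. Libraries came from separate mice. The other 12 libraries came from mice of the same ages given dexamethasone, a synthetic glucocorticoid, at 1 mg/kg/day by the same route and for the same time. They serve here only as other mice in which the same age difference can be read. No group went without injections, and the labels name the strain without a substrain, a supplier or a colony.

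Skeletal muscle is built of long multinucleated fibres held in a scaffold of extracellular matrix. Fibrillar collagens give this scaffold its strength, basement membrane proteins coat each fibre, and fibro-adipogenic progenitors and tendon cells make most of the fibrillar part. With age, muscle loses mass and force, fibres lose and regain their nerve supply, and the turnover of collagen slows. Each of these processes has well known genes, and their levels are described below.

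The values are regularised logarithms on a log2 scale, in which a difference of 1 is a doubling. The authors had transformed each age on its own, so no value links the ages other than the genes themselves: the difference between ages was not shrunk by the transformation while the spread within an age was, the SDs and p-values may be too small, and age and transformation cannot be told apart. The comparison is therefore exploratory, and weight is given to large differences with no overlap between the groups. A gene was kept if its mean was at least 8 in both vehicle groups, which left 6482 of 24982 genes (25.9%). From each library its median over the kept genes was subtracted. A printed level is thus the log2 distance of a gene from the median kept gene of its library, it is not divided by gene length, and a fold change is 2 raised to a difference of such levels.

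After this step, the ages separated on the first principal component, which held 42.5% of the variance, with no library in the range of the other age. Of the 6482 genes, 990 (15.3%) were higher and 1099 (17%) lower in aged vehicle muscle at an adjusted p under 0.05 (limma, two-sided), together 32.2%. These are many small differences: the median size of the called ones was 0.24, and 152 of them reached 1.5-fold. With values as deposited, without centring, 1829 genes were higher and 650 lower, 73.8% higher among the calls against 47.4% with centring, since the deposited values of the kept genes lay 0.07 higher in aged libraries at the median gene. The direction of small differences hence depends on the scale, and differences are given relative to the median gene throughout. A difference of at least 1 with no overlap between the 6 aged and 6 young libraries was found for 12 genes higher (0.185%) and 20 genes lower (0.309%) in aged muscle. These 32 genes (0.494%) passed the threshold whichever of the 12 libraries was left out, in each such fit that kept them. Ranges did not overlap for 912 genes (14.1%) in all. Counts of list members below are to be read beside the 15.3% higher and 17% lower of all kept genes. Where a filter at a mean of 6 is named, it kept 9691 genes, 1981 of them higher and 1651 lower.

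**Figure D1:**
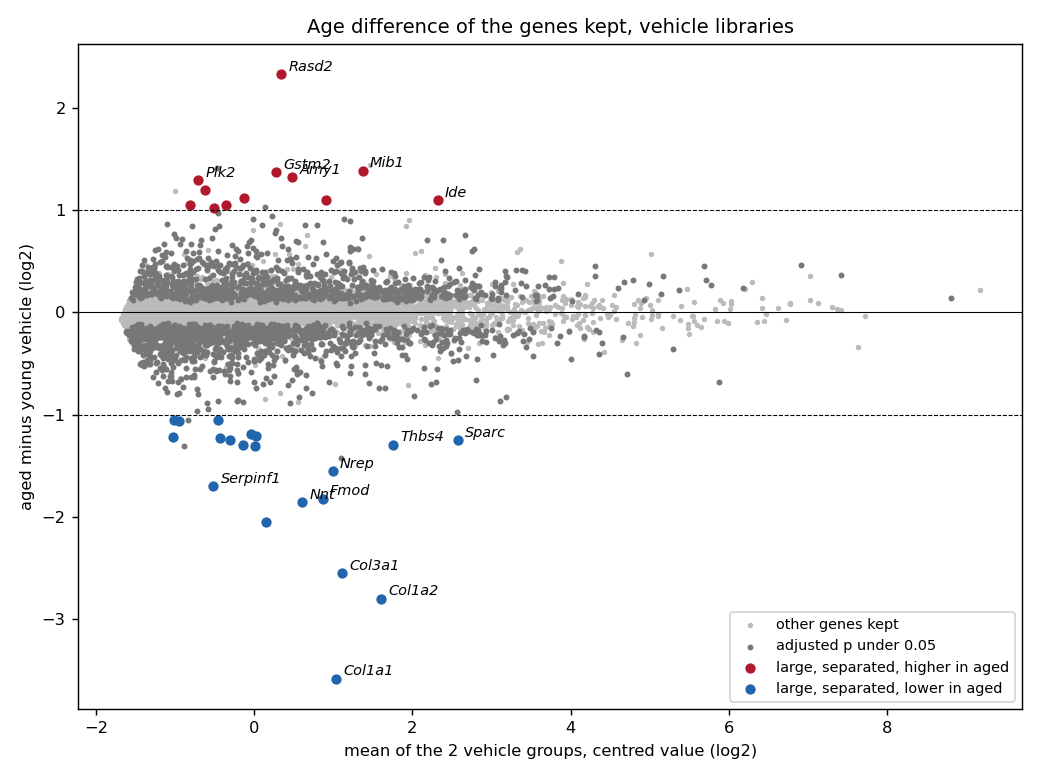
Each point is 1 of the 6482 kept genes. The horizontal axis gives the mean of the aged and young vehicle groups as centred log2 value, the vertical axis the aged minus young difference (log2). Red points are the 12 large, separated genes higher in aged muscle and blue points the 20 lower ones, dark grey points passed the adjusted p threshold of 0.05, and dashed lines mark differences of 1. Col1a1, Col1a2 and Col3a1 lie below all other kept genes.

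The steepest falls among the kept genes were those of Col1a1, Col1a2 and Col3a1, which encode fibrillar collagen chains. Col1a1 encodes the α1 chain of type I collagen, the main fibre-forming protein of muscle connective tissue and tendon. Its level lay between −1.53 and 0.15 in aged libraries (median −1.02), against 2.15 to 3.24 in young libraries (median 2.89). Aged replicates 2 and 3 were the highest of the aged and still about 2 log2 units under the lowest young library, young replicate 6. The difference was −3.58 ± 0.29 (the error of a difference is its standard error throughout), or 12.0-fold lower in aged muscle (limma adjusted p = 4.35e-06). Col1a2, the α2 chain that assembles with it, lay between −0.43 and 0.89 in aged libraries (median 0.09), against 2.40 to 3.46 in young libraries (median 3.01). Its difference was −2.80 ± 0.24 (SE, adjusted p = 7.74e-06). Col3a1, the chain of type III collagen, which co-assembles with type I in soft connective tissue, lay between −0.95 and 0.87 in aged libraries (median −0.46), against 1.85 to 2.78 in young libraries (median 2.46), a difference of −2.55 ± 0.30 (SE, adjusted p = 9.22e-05). The groups did not overlap for any of the 3, and the same 2 aged and 1 young libraries stood nearest to each other each time.

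**Figure D2:**
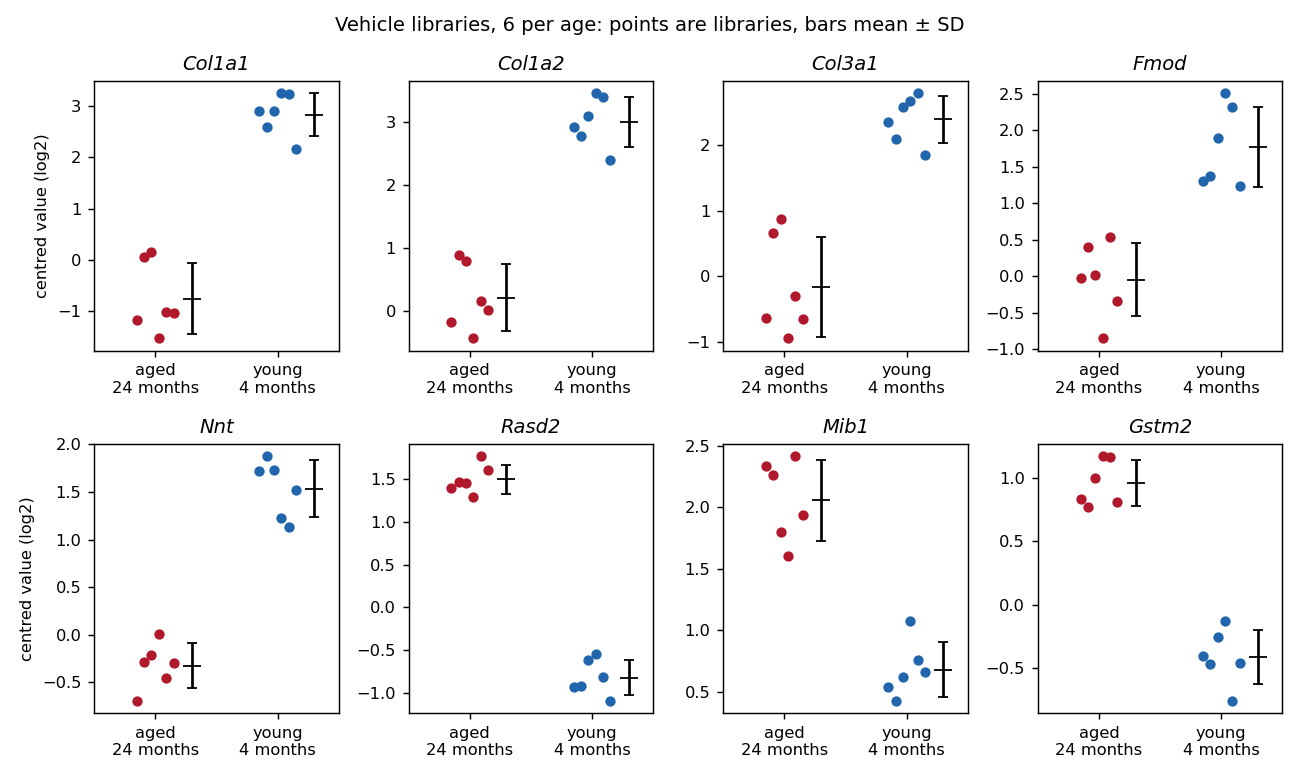
Centred log2 value (vertical axis) of 8 genes in the 6 aged vehicle libraries (24 months, red, left) and the 6 young vehicle libraries (4 months, blue, right). Points are libraries in replicate order, and the bars beside them give mean ± SD. The upper row shows 3 collagen genes and Fmod, the lower row Nnt and then 3 genes higher in aged muscle, and no aged library overlaps a young one in any panel.

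The promoters of Col1a2 and Col3a1, whose transcripts fell, and of Rasd2, whose transcript showed the largest rise among the kept genes, are given as a record of the sequence at these genes, from 250 bases before to 50 bases after the annotated start (RefSeq, build GRCm38.p6, all on the plus strand). Capitals mark the letters CCAAT or, on the other strand, ATTGG, and the letters TATAA or TTATA.
Col1a2, chr6:4505368-4505667: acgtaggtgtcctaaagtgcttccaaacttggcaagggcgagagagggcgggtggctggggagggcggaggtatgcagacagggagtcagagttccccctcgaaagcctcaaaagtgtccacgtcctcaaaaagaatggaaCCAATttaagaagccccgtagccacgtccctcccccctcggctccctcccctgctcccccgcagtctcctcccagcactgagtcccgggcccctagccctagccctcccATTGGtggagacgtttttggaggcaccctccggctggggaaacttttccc
Col3a1, chr1:45311288-45311587: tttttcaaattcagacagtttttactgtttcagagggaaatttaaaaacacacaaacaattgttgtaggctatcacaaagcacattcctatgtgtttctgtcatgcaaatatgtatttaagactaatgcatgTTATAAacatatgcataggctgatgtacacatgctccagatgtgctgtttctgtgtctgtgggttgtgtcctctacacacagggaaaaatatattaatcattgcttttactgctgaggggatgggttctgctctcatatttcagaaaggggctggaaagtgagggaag
Rasd2, chr8:75213694-75213993: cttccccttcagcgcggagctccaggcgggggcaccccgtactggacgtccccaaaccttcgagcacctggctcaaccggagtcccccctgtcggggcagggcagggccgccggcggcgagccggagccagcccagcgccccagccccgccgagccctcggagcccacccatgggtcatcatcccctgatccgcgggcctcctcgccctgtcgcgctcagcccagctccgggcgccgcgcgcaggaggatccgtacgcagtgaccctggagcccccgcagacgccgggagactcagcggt
In the Col1a2 window CCAAT begins 109 bases before the start and ATTGG at the start itself. In the Col3a1 window TATAA begins 117 bases and TTATA 118 bases before the start, so that they overlap. The Rasd2 window holds neither motif. CCAAT on either strand occurs in 38% of all 27025 promoters of this table and TATAA in 25.5%, and among the 5195 promoters of kept genes in 38% and 12.4%, so each match is a description of the letters and no more. Col1a1 and Nnt have no entry in the table. In the same build Col1a1 lies at chr11:94936224-94953042, Col1a2 at chr6:4505618-4541543, Col3a1 at chr1:45311538-45349706, Nnt at chr13:119335527-119409257 and Rasd2 at chr8:75213944-75224113.

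Other matrix genes were lower as well. Of the 39 genes on a list of fibrillar and basement membrane matrix, 30 were kept, 24 of them lower and 1 higher, with a median difference of −0.70 against 0.00 over all kept genes. The count of 24 lower was the same under each of 4 other scalings. Fn1, fibronectin, onto which collagen fibres assemble, lay between −1.09 and −0.02 in aged libraries (median −0.81), against 0.30 to 1.07 in young libraries (median 0.61), a difference of −1.31 ± 0.21 (SE, adjusted p = 0.00069). The chains of type VI collagen, which links fibres to the basement membrane, differed by −1.30 ± 0.19 (Col6a2) and −1.22 ± 0.18 (Col6a3). Sparc, a collagen-binding protein needed for fibril formation, averaged 1.95 ± 0.22 in aged libraries and 3.20 ± 0.23 in young libraries (SD, n = 6 each), a difference of −1.25 ± 0.12 (SE, adjusted p = 1.69e-05) with little scatter. Fbn1, fibrillin, the core of elastic microfibrils, differed by −1.22 ± 0.18 (SE, adjusted p = 0.00038).

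Further members of the list are named here after their values were seen. Col6a1 (−1.21 ± 0.17), the remaining common chain of type VI collagen, and Mmp2 (−1.05 ± 0.17), a protease that cuts denatured collagen, completed the 10 matrix genes among the 32. Among genes that process collagen, Serpinh1, the chaperone of procollagen, ranged over −0.92 to −0.17 in aged libraries and 0.03 to 0.66 in young libraries (difference −0.88 ± 0.14, adjusted p = 0.000661), and Lox, the enzyme that cross-links collagen, differed by −1.05 ± 0.23 (SE, adjusted p = 0.00464) with overlapping groups. P4ha1, a subunit of the enzyme that hydroxylates collagen prolines, lay at 0.01 ± 0.17 in aged libraries and 0.22 ± 0.19 in young libraries and did not pass (adjusted p = 0.115). Among small proteoglycans that coat fibrils, Dcn (decorin) differed by −0.70 ± 0.18 (SE, adjusted p = 0.0092) with overlapping groups and Bgn (biglycan) by −0.70 ± 0.14 (SE, adjusted p = 0.00316) without overlap.

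Basement membrane genes were lower too. Col4a1 and Col4a2, the chains of its collagen network, lay at 2.35 to 2.67 in aged libraries and 3.03 to 3.27 in young libraries for Col4a1, a difference of −0.66 ± 0.06 (SE, adjusted p = 1.69e-05), and at 2.07 to 2.49 in aged libraries and 2.74 to 2.97 in young libraries for Col4a2, a difference of −0.47 ± 0.07 (SE, adjusted p = 0.000341). Lama2, the laminin chain whose loss causes a muscular dystrophy, differed by −0.67 ± 0.12 (SE, adjusted p = 0.00114), and Nid1, which links laminin to type IV collagen, by −0.83 ± 0.13 (SE, adjusted p = 0.000562). None of these 4 overlapped between groups. Timp4, an inhibitor of matrix proteases, was the 1 higher member at 0.38 ± 0.13 (SE, adjusted p = 0.0384), and it passed in 5 of 12 fits that left out a library.

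**Figure D3:**
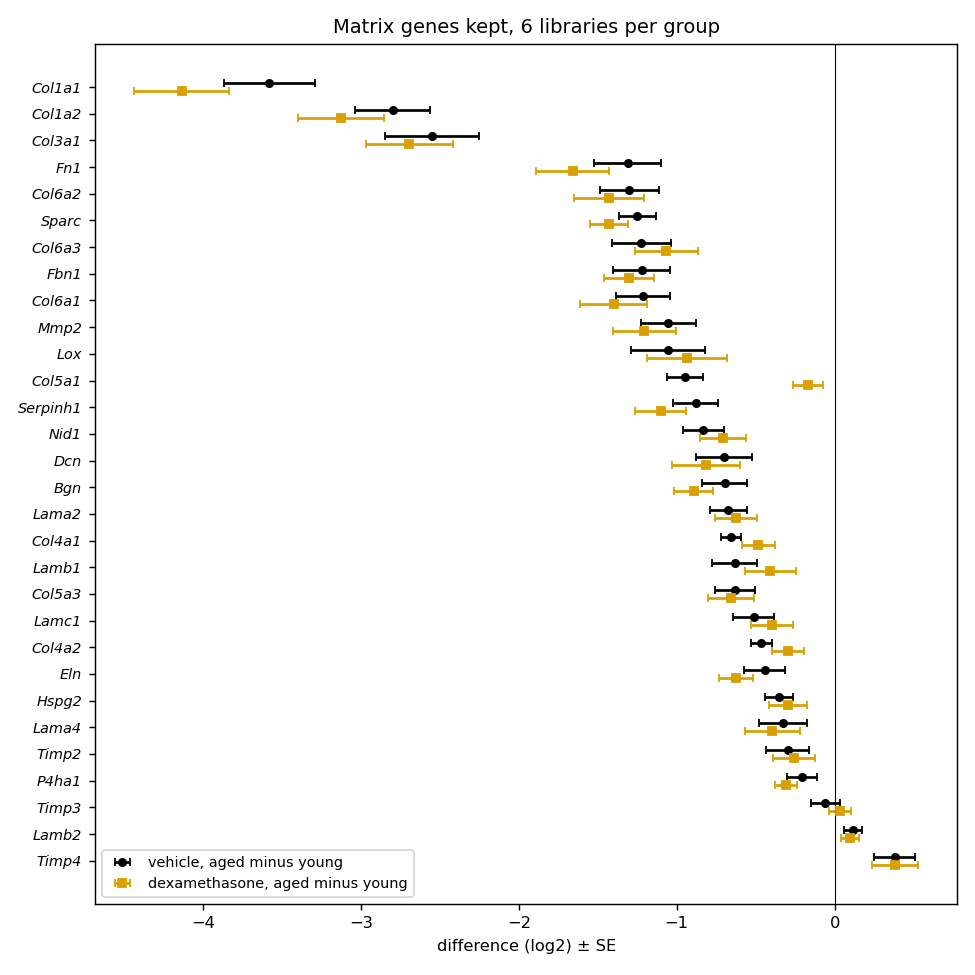
Aged minus young difference (horizontal axis, log2, bars ± SE) of the 30 kept matrix genes, from the vehicle libraries (black circles) and from the dexamethasone libraries (yellow squares), 6 libraries per group. Nearly all lie left of 0 in both, Col1a1 furthest, and Col5a1 is the gene whose differences in vehicle and dexamethasone libraries stand furthest apart relative to their errors.

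Of the 9 list members outside the filter, 5 passed its limit in young muscle alone and 4 in neither age, so that the filter removed genes with low values in aged muscle. They have no test and are given as values. A gene that passed in 1 age alone had its higher deposited mean there by that choice, so its direction adds no support. The 5 that passed in young muscle are Col5a2, Postn, Col15a1, Lum and Col18a1. Col5a2, a chain of type V collagen, which starts type I fibrils, lay at −1.90 ± 0.37 in aged libraries and −0.33 ± 0.28 in young libraries (SD), a difference of −1.58. Postn (periostin), a matrix protein of growing and repairing connective tissue, lay at −3.29 ± 0.30 in aged libraries and −1.44 ± 0.24 in young libraries. Col15a1, a collagen of the basement membrane zone, lay at −1.85 ± 0.40 in aged libraries and −0.62 ± 0.21 in young libraries, a difference of −1.23. In these 3 all aged libraries lay below all young ones, whereas the groups overlapped for Lum (lumican), a fibril proteoglycan (−0.78), and Col18a1, another collagen of the basement membrane zone (−0.63). Outside the list, and chosen after their values were seen, Col12a1, a collagen that binds to the surface of fibrils, lay at −3.34 ± 0.30 in aged libraries and −1.32 ± 0.25 in young libraries. Cilp2, a protein of cartilage and tendon matrix, ranged over −5.72 to −5.16 in aged libraries and −2.20 to −0.87 in young libraries, a difference of −3.83, and Angptl7, a secreted protein of connective tissue, over −2.29 to −1.17 in aged libraries and −0.09 to 1.32 in young libraries. In these 3, too, all aged libraries lay below all young ones.

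Markers of tendon cells moved with the matrix. Of 7 tenocyte markers, none of them at 0, only Fmod and Thbs4 were kept, and both were lower. Fmod (fibromodulin), a proteoglycan that guides collagen fibril growth, lay between −0.86 and 0.53 in aged libraries (median −0.01), against 1.23 to 2.51 in young libraries (median 1.64), a difference of −1.82 ± 0.27 (SE, adjusted p = 0.000363). Thbs4, a thrombospondin of muscle-tendon junctions, lay between 0.61 and 1.56 in aged libraries (median 1.09), against 2.01 to 2.85 in young libraries (median 2.36), a difference of −1.30 ± 0.19 (SE, adjusted p = 0.000311). The log2 of the summed level of the 7 was 1.26 to 2.21 in aged and 2.87 to 3.86 in young libraries. Of the members outside the filter, Tnmd (tenomodulin) lay at −5.12 to −4.68 in aged libraries and −2.92 to −1.86 in young libraries, Chad (chondroadherin) at −5.13 to −4.24 in aged libraries and −2.01 to −0.60 in young libraries and Comp at −3.77 to −2.52 in aged libraries and −2.33 to −1.05 in young libraries. Scx, the transcription factor that defines tendon cells, ran the other way, at −2.71 to −2.18 in aged libraries and −3.29 to −2.86 in young libraries.

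Markers of fibro-adipogenic progenitors, the connective tissue cells between fibres, were lower as well. Of 14, with none at 0, 5 were kept and 3 of these were lower (median −0.26). With a filter at a mean of 6, 13 were kept and 9 were lower, with a median of −0.67, against −0.71 for the 36 matrix genes kept there. Both lists hold Lum, Col15a1 and Dcn, so their medians rest in part on the same genes. Of all 9691 genes kept there, 1651 were lower. The log2 of the summed level of the 14 was 3.55 to 4.42 in aged and 4.26 to 4.93 in young libraries, which overlap. Gsn (gelsolin) differed by −0.83 ± 0.18 (SE, adjusted p = 0.00451), and 4 markers passed the filter in young muscle alone. Of these Col15a1, given above, and Dpt (dermatopontin, −1.01) did not overlap between groups, while Lum and Pdgfra, the defining surface receptor (−0.64), did. In the dexamethasone libraries Dpt overlapped too and Col15a1 did not. Passing in young muscle alone already sets a lower aged mean, so these 4 markers add no support. The part of tendon or connective tissue cells in the matrix result was not tested. In a whole muscle, fewer cells of a type and less RNA per cell cannot be told apart.

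Other large falls were genes of metabolism, of the cell surface and of muscle itself. Nnt, the mitochondrial transhydrogenase that makes NADPH, lay between −0.70 and 0.01 in aged libraries (median −0.29), against 1.13 to 1.88 in young libraries (median 1.62), a difference of −1.86 ± 0.14 (SE, adjusted p = 2.74e-06). It is known to carry a deletion in a widely used substrain of C57BL/6, and since the labels give no substrain, age and substrain cannot be told apart for it. Cd59a, a surface inhibitor of the complement membrane attack complex, averaged −0.93 ± 0.21 in aged libraries and 0.32 ± 0.10 in young libraries, a difference of −1.25 ± 0.09 (SE, adjusted p = 1.34e-06).

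Serpinf1, which encodes the secreted factor PEDF, lay between −1.76 and −0.87 in aged libraries (median −1.36), against −0.15 to 0.87 in young libraries (median 0.31), a difference of −1.70 ± 0.19 (SE, adjusted p = 7.69e-05). Nrep, a small protein of regenerating neurons and of fibroblasts, lay between −0.24 and 0.35 in aged libraries (median 0.29), against 1.72 to 1.86 in young libraries (median 1.77), a difference of −1.56 ± 0.09 (SE, adjusted p = 2.88e-07). Of the remaining falls, named after their values were seen, Mettl21c, a muscle methyltransferase, ranged over −1.26 to −0.32 in aged libraries and 0.31 to 1.22 in young libraries and differed by −1.19 ± 0.17 (SE, adjusted p = 0.000311). Phyhd1, a dioxygenase, differed by −1.05 ± 0.07 (SE, adjusted p = 8.44e-07), and Prelp, a proteoglycan that anchors basement membranes, by −1.06 ± 0.18 (SE, adjusted p = 0.00114).

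The largest rise among the kept genes was that of Rasd2, a small GTPase of the Ras family also called Rhes, best known from striatal neurons. Its level lay between 1.30 and 1.78 in aged libraries (median 1.47), against −1.10 to −0.54 in young libraries (median −0.87). The lowest aged library stood more than 1.5 log2 units above the highest young one, and the difference was 2.33 ± 0.10 (SE, adjusted p = 2.50e-08), or 5.02-fold higher. Mib1, a ubiquitin ligase that activates Notch ligands in the signal-sending cell, lay between 1.60 and 2.42 in aged libraries (median 2.10), against 0.42 to 1.08 in young libraries (median 0.64), a difference of 1.38 ± 0.14 (SE, adjusted p = 3.82e-05). Gstm2, a glutathione transferase that conjugates electrophiles, lay between 0.77 and 1.17 in aged libraries (median 0.91), against −0.76 to −0.13 in young libraries (median −0.43), a difference of 1.37 ± 0.10 (SE, adjusted p = 2.93e-06). Amy1, an amylase, differed by 1.32 ± 0.11 (SE, adjusted p = 4.35e-06). Of its exon bases 32.7% are shared with Rnpc3, so its reads could not be assigned with certainty.

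The other rises lay closer to a doubling. Plk2, a stress-inducible kinase, had the widest aged range of these, at −0.91 to 0.82 in aged libraries and −1.60 to −0.94 in young libraries. Its lowest aged library stood just above its highest young one, and the difference was 1.29 ± 0.28 (SE, adjusted p = 0.00413). Pak1, a kinase of the actin cytoskeleton that acts in insulin-stimulated glucose uptake, ranged over −0.40 to 0.33 in aged libraries and −1.41 to −1.10 in young libraries (difference 1.19 ± 0.10, adjusted p = 9.05e-06). Ppp1r1a, an inhibitor of protein phosphatase 1, differed by 1.12 ± 0.13 (SE, adjusted p = 0.000102) and Plekhb1, a membrane protein with a pleckstrin homology domain, by 1.10 ± 0.07 (SE, adjusted p = 1.07e-06).

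Ide, the insulin-degrading enzyme, had narrow groups at 2.69 to 3.02 in aged libraries and 1.56 to 1.88 in young libraries, a difference of 1.09 ± 0.06 (SE, adjusted p = 3.77e-07). Nearby Btaf1 (0.86) and Fgfbp3 (1.30, outside the filter) were higher too, while Cpeb3, between Btaf1 and Ide, did not pass (−0.07). For Ide, as for Nnt, age and substrain or colony cannot be told apart. Wnt4, a Wnt ligand, ranged over 0.01 to 0.26 in aged libraries and −1.20 to −0.47 in young libraries (difference 1.05 ± 0.10, adjusted p = 1.76e-05). Hook1, an adaptor of the dynein motor, differed by 1.02 ± 0.11 (SE, adjusted p = 5.82e-05). H2-Q4, a class I histocompatibility gene of a family with near-identical copies, differed by 1.05 ± 0.12 (SE, adjusted p = 0.0001), and its reads could have been split among them.

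The same age contrast was then read in the dexamethasone libraries, which are other mice but share the transformation with the vehicle libraries of their age. There 1391 genes (21.5%) were higher and 1418 (21.9%) lower in aged muscle, 43.3% in all. All 32 genes had the same direction, 31 passed the threshold and 27 did not overlap between groups, against 1385 of the 6482 genes without overlap (21.4%) in those libraries. The full rule that picked the 32, with its limit of 1, was met there by 21, namely 6 of the 12 higher and 15 of the 20 lower genes. Col1a1 differed there by −4.14, Col1a2 by −3.13, Rasd2 by 2.34 and Nnt by −1.93. The 1 gene of the 32 that missed the threshold was Plk2 (0.65). The test of whether the age difference differed between treatments (limma, interaction term, 24 libraries) called 0 of 6482 genes, with 152 (2.34%) at an unadjusted p under 0.05. Its smallest adjusted p, 0.141, was reached by Col5a1, another chain of type V collagen, named after this was seen: its age difference was −0.17 in dexamethasone and −0.95 in vehicle libraries. Both treatments of an age were transformed together, which may shrink the differences between them. The 0 calls therefore do not show that the age difference is the same in both treatments.

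**Figure D4:**
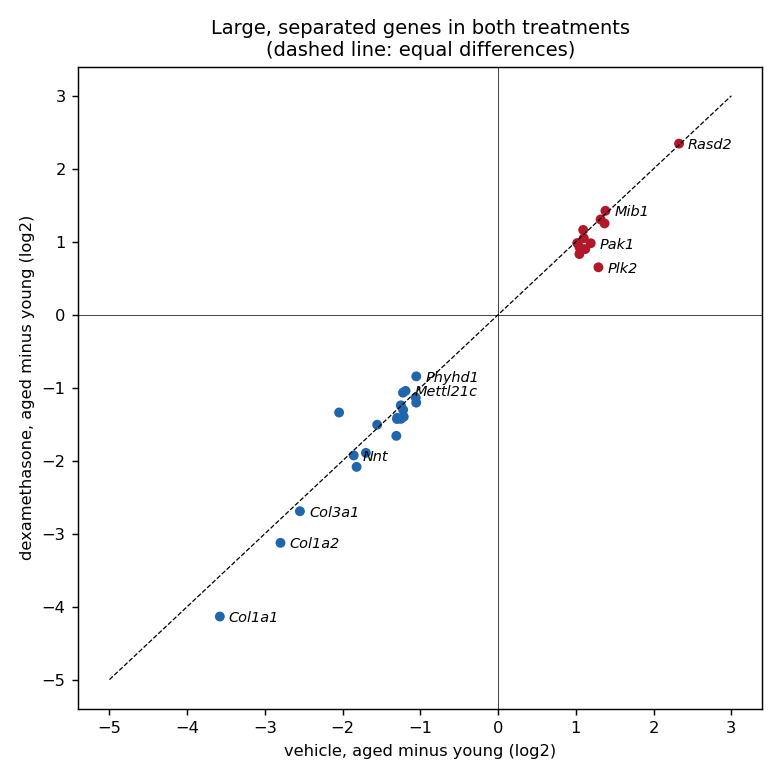
Aged minus young difference (log2) of the 32 large, separated genes in the vehicle libraries (horizontal axis) and in the dexamethasone libraries (vertical axis). Red points were higher and blue points lower in aged vehicle muscle, and the dashed line marks equal differences. All points lie in the quadrants of equal sign and most lie close to the line, with Plk2 among those nearer to 0 in the dexamethasone libraries. Both treatments of an age were transformed together, which may draw points towards the line.

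Genes of oxidative metabolism were lower by small amounts. Of 48 nuclear-encoded subunits and assembly factors of the respiratory chain and ATP synthase, all kept, 23 were lower and 0 higher at the threshold, with a median of −0.18 and all 48 differences below 0. The count was 8 lower with values as deposited and 28 after cyclic loess normalisation. Cox7a1, the muscle form of a cytochrome oxidase subunit, lay at 1.69 ± 0.13 in aged libraries and 2.03 ± 0.14 in young libraries (SD, n = 6 each; difference −0.34 ± 0.07, adjusted p = 0.00477). Cycs, cytochrome c, ranged over 2.36 to 2.60 in aged libraries and 2.57 to 2.88 in young libraries (difference −0.29 ± 0.06, adjusted p = 0.00226), and Cox10, which makes the haem of cytochrome oxidase, differed by −0.31 ± 0.06 (SE, adjusted p = 0.00336). All 3 overlapped between groups.

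Of 26 genes of the tricarboxylic acid cycle and its entry through pyruvate dehydrogenase, 13 were lower and 1 higher, with a median of −0.17, and 8 were lower with values as deposited. Pdk4, the kinase that inactivates pyruvate dehydrogenase, lay between 5.06 and 5.97 in aged libraries (median 5.60), against 6.10 to 6.31 in young libraries (median 6.25), a difference of −0.68 ± 0.12 (SE, adjusted p = 0.00149). Pdp1, the phosphatase that reactivates the complex, ran the other way at 0.63 to 1.16 in aged libraries and 0.37 to 0.57 in young libraries (difference 0.39 ± 0.07, adjusted p = 0.00156). Dlat, a subunit of the complex itself, ranged over 2.70 to 2.91 in aged libraries and 3.00 to 3.41 in young libraries (difference −0.42 ± 0.07, adjusted p = 0.000673). None of the 3 overlapped between groups.

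Of 37 genes that take up or oxidise fatty acids, 34 were kept, and of these 10 were lower and 0 higher, with a median of −0.21. Angptl4, an inhibitor of lipoprotein lipase, differed by −0.78 ± 0.22 (SE, adjusted p = 0.0159). Plin5, which couples lipid droplets to mitochondria, differed by −0.74 ± 0.20 (SE, adjusted p = 0.0123), Acot2, a mitochondrial thioesterase, by −0.60 ± 0.17 (SE, adjusted p = 0.0166) and Acsl1, which activates long-chain fatty acids, by −0.42 ± 0.10 (SE, adjusted p = 0.00519). All 4 overlapped between groups. Young replicates 4 and 5 had the lowest young values of Plin5 and Acot2, as they had of Cox10 and Dlat. The same libraries had the highest young values of Col1a1, Col1a2 and Fmod, and the lowest of Nnt and Postn.

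Glycolysis and glycogen genes had no common direction, with 3 higher and 5 lower of 26 kept and a median of −0.03, or 5 higher and 1 lower with values as deposited. Fbp2, the muscle fructose bisphosphatase, which opposes glycolysis and takes part in glycogen synthesis from lactate, ranged over 0.40 to 0.85 in aged libraries and −0.34 to 0.12 in young libraries (difference 0.77 ± 0.10, adjusted p = 0.000122). Pfkfb1, an enzyme that sets the level of the activator of phosphofructokinase, ranged over −0.38 to 0.22 in aged libraries and 0.35 to 0.72 in young libraries (difference −0.63 ± 0.11, adjusted p = 0.000888). Neither overlapped. Slc2a4, the insulin-responsive glucose transporter GLUT4, differed by −0.19 ± 0.05 (SE, adjusted p = 0.0191), which had an adjusted p of 0.08 with values as deposited.

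**Figure D5:**
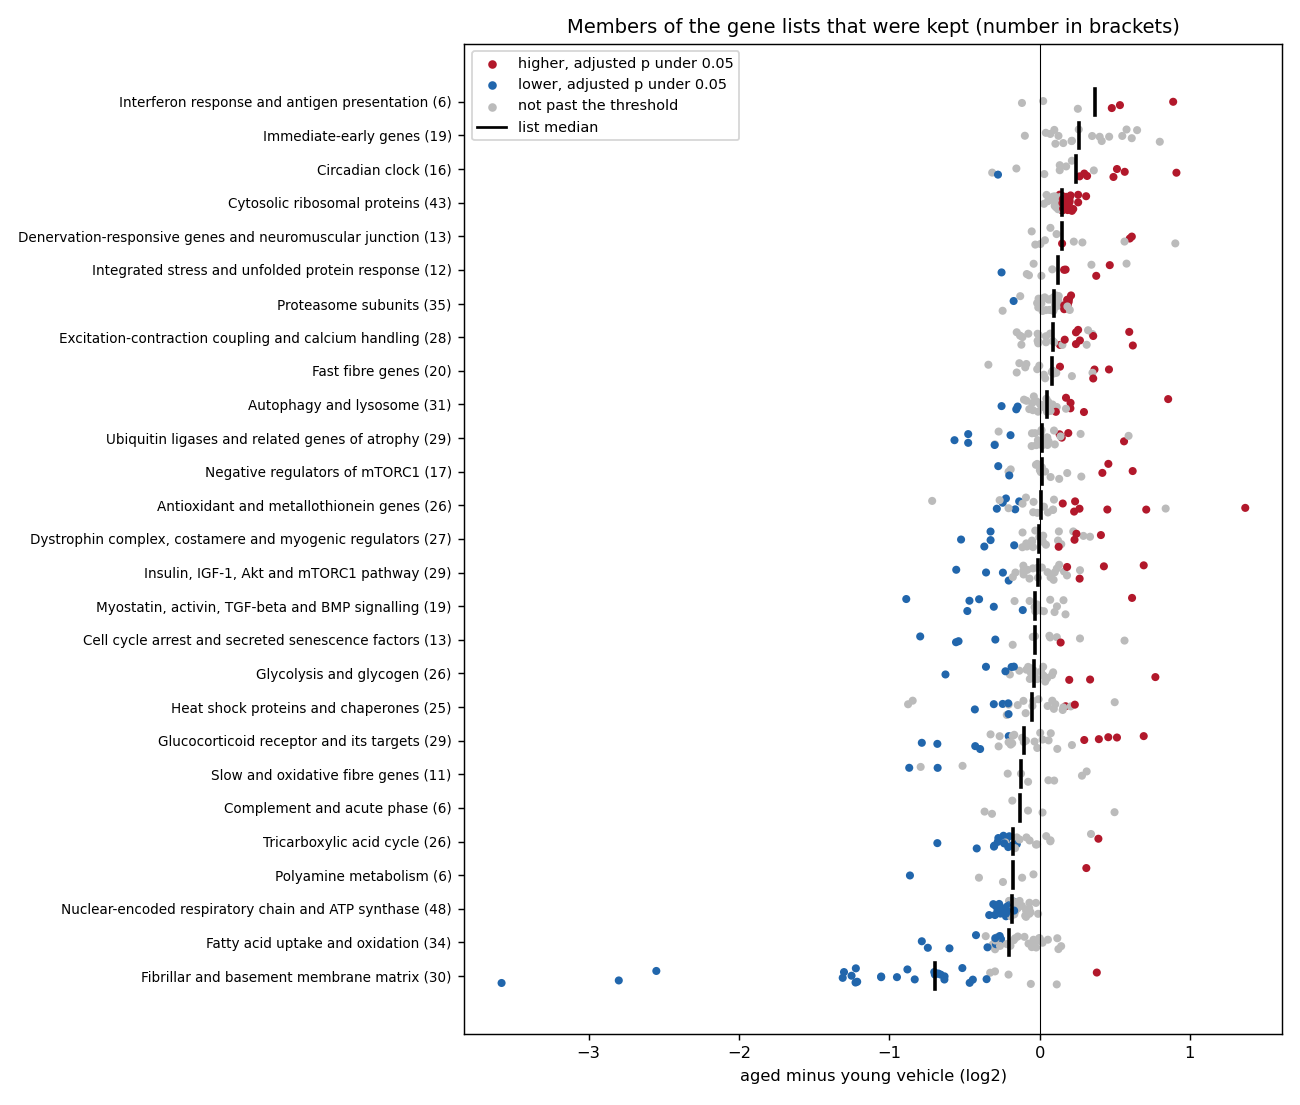
Aged minus young difference (horizontal axis, log2) of the kept members of each pathway list, ordered by the list median (black bar), with the number kept in brackets. Red and blue points passed the threshold higher and lower in aged vehicle muscle, and grey points did not. The matrix list stands far to the left, the respiratory chain list sits just left of 0 and the ribosomal protein list just right of it, both with little spread.

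Ribosomal proteins ran the other way. Of 43 kept cytosolic ribosomal protein genes, 26 were higher and 0 lower, with a median of 0.15 and all differences above 0. The count was 14 higher after quantile normalisation, 19 after cyclic loess normalisation and 41 with values as deposited. Rps20 ranged over 1.49 to 1.77 in aged libraries and 1.30 to 1.36 in young libraries (difference 0.31 ± 0.04, adjusted p = 0.000263), and Rpl4 over 3.60 to 3.76 in aged libraries and 3.40 to 3.51 in young libraries (difference 0.26 ± 0.04, adjusted p = 0.000394). Both were separated by narrow groups, the young SDs being 0.02 and 0.04. Rps25 differed by 0.22 ± 0.04 (SE, adjusted p = 0.00174), with 17.2% of its exon bases shared with Trappc4. Ribosomal protein genes have many processed copies in the genome, to which reads could have been lost.

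Genes of protein breakdown were divided. Of 35 kept proteasome subunits 9 were higher and 1 lower (median 0.09), with 24 higher in the values as deposited. Over all 6482 kept genes 15.3% were higher and 17% lower, and 1829 were higher in the values as deposited. Psmb3 differed by 0.21 ± 0.06 (SE, adjusted p = 0.0141) and Psmc3 by 0.19 ± 0.05 (SE, adjusted p = 0.00825), while Psma1 differed by −0.17 ± 0.04 (SE, adjusted p = 0.00316). Among 29 kept ubiquitin ligases and related genes of atrophy, 4 were higher and 5 lower (median 0.02), or 6 and 4 with values as deposited. The atrophy ligases Trim63 (MuRF1) and Fbxo32 (atrogin-1) lay at 4.52 ± 0.25 in aged libraries and 4.79 ± 0.21 in young libraries and at 3.49 ± 0.38 in aged libraries and 3.79 ± 0.16 in young libraries, and neither passed (adjusted p = 0.0956 and 0.147), though Trim63 did so narrowly in a limma fit of all 24 libraries (adjusted p = 0.0484). Cblb, a ligase that degrades the insulin receptor substrate, ranged over −0.71 to −0.38 in aged libraries and −0.20 to 0.22 in young libraries (difference −0.57 ± 0.07, adjusted p = 0.000175). Fbxo30, a ligase induced in muscle wasting, differed by −0.48 ± 0.07 (SE, adjusted p = 0.000375) and Fbxo21, another ligase of wasting muscle, by 0.56 ± 0.06 (SE, adjusted p = 3.34e-05).

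Of 31 kept autophagy and lysosome genes, 6 were higher and 3 lower (median 0.05), or 12 and 0 with values as deposited. Over all 6482 kept genes 15.3% were higher and 17% lower, or 1829 and 650 genes with values as deposited. Depp1, a target of FoxO transcription factors that modulates autophagy, ranged over 0.24 to 0.79 in aged libraries and −0.77 to 0.30 in young libraries (difference 0.86 ± 0.16, adjusted p = 0.00157). Young replicate 1 was the only young library in the aged range. Pink1, the kinase that marks damaged mitochondria, differed by 0.30 ± 0.07 (SE, adjusted p = 0.00631), and Bnip3l, a receptor for their removal, by 0.21 ± 0.05 (SE, adjusted p = 0.0122).

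The balance of growth signalling genes depended on the scale. On the list for insulin and IGF-1 signalling through Akt to mTORC1, 4 of 29 kept genes were higher and 4 lower (median −0.01), or 8 and 2 with values as deposited. Akt2, the Akt form of insulin-stimulated glucose uptake, averaged 3.26 ± 0.04 in aged libraries and 2.99 ± 0.04 in young libraries, a small difference of 0.27 ± 0.03 (SE, adjusted p = 0.000166) with very little scatter. Irs1, the insulin receptor substrate, differed by −0.36 ± 0.11 (SE, adjusted p = 0.0222), with an adjusted p of 0.0512 in the values as deposited, and Eif4e, the cap-binding protein, by −0.24 ± 0.06 (SE, adjusted p = 0.00825). Igf1r, the IGF-1 receptor, lay at −0.66 ± 0.18 in aged libraries and −0.56 ± 0.07 in young libraries and did not pass (adjusted p = 0.286).

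Of 17 kept negative regulators of mTORC1, 3 were higher and 2 lower (median 0.02), or 5 and 0 with values as deposited. Deptor, an inhibitor bound to mTOR itself, ranged over 1.09 to 1.61 in aged libraries and 0.65 to 1.00 in young libraries (difference 0.46 ± 0.09, adjusted p = 0.00219). Prkag3, the AMP kinase subunit of fast glycolytic fibres, differed by 0.62 ± 0.14 (SE, adjusted p = 0.00527) and Ddit4l (REDD2) by 0.42 ± 0.09 (SE, adjusted p = 0.00412). Aged replicate 4 was the lowest aged library for each of these 3 genes.

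In the myostatin, activin, TGF-β and BMP list, 6 of 19 kept genes were lower and 1 higher (median −0.03). Mstn, myostatin, the muscle-made brake on muscle growth, lay at 0.91 ± 0.41 in aged libraries and 0.95 ± 0.37 in young libraries, a difference of −0.03 ± 0.20 whose sign turned with the scaling (adjusted p = 0.911). Fstl1, a secreted glycoprotein, differed by −0.89 ± 0.17 (SE, adjusted p = 0.00205), Bmp6, a ligand, by −0.48 ± 0.11 (SE, adjusted p = 0.00445) and Smad5, a transcription factor of the BMP branch, by −0.47 ± 0.07 (SE, adjusted p = 0.000378). Tgfb2, a TGF-β ligand, was higher by 0.62 ± 0.14 (SE, adjusted p = 0.00597). In polyamine metabolism, 6 of 14 genes were kept, and Smox, which oxidises spermine, ranged over 2.25 to 2.96 in aged libraries and 3.23 to 4.09 in young libraries (difference −0.86 ± 0.15, adjusted p = 0.0012), while Oaz2, an antizyme that limits polyamine synthesis, differed by 0.31 ± 0.05 (SE, adjusted p = 0.00105).

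Genes of fibre type, excitation and the nerve contact followed. The myofibre markers stood in all libraries, with 0 of 6 past the threshold and a log2 summed level of 10.27 to 10.47 in aged and 10.08 to 10.34 in young libraries. Of 20 fast fibre genes 4 were higher and 0 lower, 20% against the 15.3% higher of all kept genes. Their median was 0.08, or −0.01 after quantile normalisation, and with values as deposited 11 were higher and 0 lower. Mybpc2, the fast myosin-binding protein C, ranged over 7.07 to 7.24 in aged libraries and 6.46 to 6.89 in young libraries (difference 0.46 ± 0.07, adjusted p = 0.000408), and Actn3, the fast fibre α-actinin, over 7.47 to 7.70 in aged libraries and 7.15 to 7.40 in young libraries (difference 0.37 ± 0.05, adjusted p = 0.000381). Neither overlapped.

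The fast myosin heavy chains did not pass: Myh4 (type IIB) lay at 9.28 ± 0.14 in aged libraries and 9.07 ± 0.21 in young libraries, Myh1 (type IIX) at 7.47 ± 0.25 in aged libraries and 7.81 ± 0.28 in young libraries and Myh2 (type IIA) at 4.02 ± 0.46 in aged libraries and 4.14 ± 0.95 in young libraries, with adjusted p of 0.094, 0.0723 and 0.825. In the limma fit of all 24 libraries Myh4 and Myh1 had adjusted p of 0.0373 and 0.0253. The difference of Myh4 changed its sign after quantile normalisation and that of Myh2 without single libraries. Myh2 was widely spread in young mice, where replicates 4 and 5 stood at 2.88 and 2.99 and the others above 4.5. Of 11 kept slow fibre genes, 2 were lower and 0 higher (median −0.12). These were Myoz2, a Z-disc protein of slow fibres (difference −0.87 ± 0.27, adjusted p = 0.0252), and Ankrd2, a stretch-responsive protein (difference −0.68 ± 0.23, adjusted p = 0.0397), which passed in 7 and 4 of the 12 fits that left out a library. Myh7, the slow myosin, lay outside the filter at −4.07 to −1.90 in aged libraries and −4.53 to −2.23 in young libraries, overlapping.

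Of 28 kept genes of excitation-contraction coupling, 9 were higher and 0 lower (median 0.09). Camk2b, a calcium-dependent kinase, ranged over 3.00 to 3.21 in aged libraries and 2.40 to 2.51 in young libraries, among the tightest differences here (difference 0.62 ± 0.04, adjusted p = 9.77e-07). Cacng1 and Cacna1s, subunits of the voltage sensor of the transverse tubule, differed by 0.60 ± 0.09 (SE, adjusted p = 0.000343) and 0.36 ± 0.07 (SE, adjusted p = 0.00157), both with no overlap.

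Of 30 genes that respond to denervation or build the neuromuscular junction, 13 were kept, 3 were higher and 0 lower (median 0.15). Of all kept genes 15.3% were higher. With a filter at a mean of 6, 23 were kept, 10 higher and 0 lower (median 0.25), where 1981 of all 9691 genes were higher. Chrnb1, the β subunit of the muscle acetylcholine receptor, ranged over 0.16 to 0.53 in aged libraries and −0.45 to 0.01 in young libraries (difference 0.60 ± 0.08, adjusted p = 0.000253), with no overlap. Hdac4, a deacetylase induced by denervation, differed by 0.61 ± 0.15 (SE, adjusted p = 0.00839), with aged replicates 1, 2 and 5 above 0.9 and the other aged libraries at or under 0.45. Rapsn, which clusters the receptor, differed by 0.15 ± 0.05 (SE, adjusted p = 0.0272) and passed in 9 of 12 fits that left out a library. Of the 3 members that passed the filter in aged muscle alone, with no test, Chrna1, the α subunit, lay at −1.83 to −0.94 in aged libraries and −2.14 to −1.89 in young libraries. Runx1, a transcription factor induced by denervation, lay at −2.54 to −1.24 in aged libraries and −2.85 to −1.75 in young libraries and Myh8, the perinatal myosin heavy chain, at −1.81 to −1.33 in aged libraries and −2.91 to −1.47 in young libraries, and both overlapped between groups.

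Among 27 kept genes of the dystrophin complex, the costamere and the myogenic programme, 4 were higher and 5 lower (median 0.00), or 8 and 3 with values as deposited. Itga7, the muscle laminin receptor chain, ranged over 1.39 to 1.78 in aged libraries and 1.07 to 1.28 in young libraries (difference 0.41 ± 0.06, adjusted p = 0.000524), and Des, desmin, over 6.20 to 6.40 in aged libraries and 5.97 to 6.15 in young libraries (difference 0.23 ± 0.05, adjusted p = 0.00225). Sspn, sarcospan, a membrane part of the dystrophin complex, ranged over 0.74 to 1.14 in aged libraries and 1.38 to 1.56 in young libraries (difference −0.52 ± 0.07, adjusted p = 0.000147), and Cav3, muscle caveolin, differed by −0.33 ± 0.08 (SE, adjusted p = 0.00572). The first 3 did not overlap between groups. Outside the filter and untested, Myod1, a myogenic regulator, passed in aged muscle alone. It lay at −0.30 ± 0.37 in aged libraries and −1.75 ± 0.85 in young libraries (SD, n = 6 each), with overlapping groups. Six4 passed in young muscle alone (−0.54), without overlap.

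Of 16 kept clock genes 7 were higher and 1 lower (median 0.24). Cry2, a repressor of the clock, lay between 1.03 and 2.31 in aged libraries (median 1.55), against 0.39 to 0.86 in young libraries (median 0.69), a difference of 0.91 ± 0.17 (SE, adjusted p = 0.00157), and aged replicate 1 was its highest library. Bhlhe40, another repressor, differed by 0.57 ± 0.15 (SE, adjusted p = 0.0125) and Per2 by 0.51 ± 0.15 (SE, adjusted p = 0.018), while Nr1d2, a nuclear receptor of the clock, differed by −0.28 ± 0.07 (SE, adjusted p = 0.0092). The labels give the time from the last injection and no hour of day.

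Of 29 kept genes of the glucocorticoid receptor and its targets, 5 were higher and 5 lower (median −0.10) in mice that had not received the drug, or 6 and 3 with values as deposited. Glul, glutamine synthetase, a classical target, ranged over 4.35 to 4.81 in aged libraries and 3.93 to 4.35 in young libraries (difference 0.46 ± 0.08, adjusted p = 0.00142). Nr3c1, the receptor, lay at 1.03 ± 0.38 in aged libraries and 0.64 ± 0.09 in young libraries and Fkbp5, its inducible co-chaperone, at 2.46 ± 0.35 in aged libraries and 2.89 ± 0.24 in young libraries. Their differences, 0.39 ± 0.14 (SE, adjusted p = 0.0469) and −0.43 ± 0.15 (SE, adjusted p = 0.0496), passed in 3 of 12 fits each that left out a library. Pdk4 and Angptl4, described above, are targets as well and were lower, and Per2 was higher.

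Of 38 genes of the interferon response and antigen presentation only 6 were kept, of which 3 were higher and 0 lower (median 0.37), while a filter at a mean of 6 kept 25, with 8 higher and 1 lower (median 0.20). Of all 9691 genes that this filter kept, 1981 were higher and 1651 lower. H2-K1, a class I histocompatibility heavy chain, ranged over 1.40 to 1.99 in aged libraries and 0.52 to 0.95 in young libraries (difference 0.89 ± 0.10, adjusted p = 6.41e-05), H2-D1 differed by 0.53 ± 0.10 (SE, adjusted p = 0.00175), and B2m, the light chain, ranged over 1.04 to 1.60 in aged libraries and 0.65 to 1.02 in young libraries (difference 0.48 ± 0.10, adjusted p = 0.00324). None of the 3 overlapped between groups. Reads of the heavy chains could have been split among near-identical copies, which does not hold for B2m. Of 18 complement and acute phase genes 6 were kept and 0 passed, while a filter at a mean of 6 kept 15, with 2 higher and 1 lower (median −0.14). C4b passed the filter at 8 in aged muscle alone (0.83), and Cfd (−0.45) and Hp (−0.67) in young muscle alone. These have no test, and their groups overlapped.

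Few markers of immune cells passed the filter. Of 14 macrophage markers 1 was kept and it did not pass, with a log2 summed level of 0.16 to 1.25 in aged and 0.47 to 1.06 in young libraries. A filter at a mean of 6 kept 7 of them, 0 higher and 2 lower (median −0.25), where 1651 of all 9691 genes were lower. None of the T cell, B and plasma cell, neutrophil or erythroid markers was kept, so they have no test. The summed levels of the first 3 lists were low, and the groups did not overlap. The log2 of the summed level of 7 T cell markers was −5.13 to −4.59 in aged and −7.25 to −7.18 in young libraries. That of 6 B and plasma cell markers was −3.75 to −1.68 in aged and −5.43 to −5.31 in young libraries, and that of 6 neutrophil markers −2.18 to −1.49 in aged and −3.31 to −2.97 in young libraries. At such levels, too, age and transformation cannot be told apart. Of 5 erythroid markers 4, the haemoglobin genes, stood at 0 in all libraries. The other, Alas2, passed the filter in aged muscle alone. It lay at −1.43 ± 1.46 in aged libraries and −3.08 ± 0.33 in young libraries (SD, n = 6 each), with overlapping groups. With a filter at a mean of 6 it was kept and was higher (1.68). The log2 summed level of the erythroid list was −2.57 to 1.36 in aged and −3.29 to −2.41 in young libraries. Among 11 kept endothelial markers 2 were higher and 2 lower, Vwf at 0.54 ± 0.10 (SE, adjusted p = 0.00152) and Tek at −0.45 ± 0.10 (SE, adjusted p = 0.00427) among them, and the summed level was 5.15 to 5.36 in aged and 5.11 to 5.37 in young libraries. Of 7 kept mural markers 1, Pdgfrb, was lower (difference −0.38 ± 0.10, adjusted p = 0.0151), and of 3 kept Schwann cell markers 0 passed. Of 3 kept satellite cell markers 2 were higher, Cdh15 by 0.21 ± 0.04 (SE, adjusted p = 0.00347) and Des, given above, by 0.23. Fibres also express Des, so it does not stand for satellite cells alone. With a filter at a mean of 6, 2 of 5 satellite cell markers were higher and 2 lower. The 1 kept adipocyte marker, Car3, which fibres also express, was higher by 0.45 ± 0.06 (SE, adjusted p = 0.000225). With a filter at a mean of 6, 3 adipocyte markers were kept, 1 higher and 0 lower, with a median of −0.42. Of all 9691 genes kept there, 1981 were higher and 1651 lower. Cfd, an adipocyte marker that passed the filter at 8 in young muscle alone, differed by −0.45 with overlapping groups.

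Of 13 kept genes of cell cycle arrest and secreted senescence factors, 1 was higher and 4 lower (median −0.03). The balance turned to 3 higher and 2 lower with values as deposited, and to 4 and 2 of 19 with a filter at a mean of 6. Cdkn1a, which encodes the arrest factor p21, lay at 1.77 ± 0.43 in aged libraries and 1.95 ± 0.21 in young libraries and did not pass (adjusted p = 0.455). Cdkn1b, which encodes p27, ranged over −0.62 to −0.20 in aged libraries and 0.03 to 0.27 in young libraries (difference −0.54 ± 0.07, adjusted p = 0.00015), and Igfbp6, an IGF-binding protein of connective tissue, differed by −0.79 ± 0.15 (SE, adjusted p = 0.00159). Neither gene overlapped between groups.

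The balance of stress genes depended on the scale as well. Of 26 kept antioxidant and metallothionein genes 7 were higher and 5 lower (median 0.01), or 8 and 1 with values as deposited. Besides Gstm2, Gpx3, a secreted glutathione peroxidase, ranged over 2.61 to 3.07 in aged libraries and 1.85 to 2.31 in young libraries (difference 0.71 ± 0.09, adjusted p = 0.00015), and Nqo1, a quinone reductase, differed by 0.45 ± 0.07 (SE, adjusted p = 0.000626). Sod2, the superoxide dismutase of mitochondria, differed by −0.28 ± 0.06 (SE, adjusted p = 0.00314). Of 25 kept heat shock proteins and chaperones 2 were higher and 5 lower (median −0.05), or 5 and 3 with values as deposited, with Hsph1 at −0.43 ± 0.12 (SE, adjusted p = 0.0132), Hspb6 at −0.30 ± 0.08 (SE, adjusted p = 0.0132) and Dnajb5 at 0.23 ± 0.07 (SE, adjusted p = 0.0165). Of 12 kept genes of the integrated stress and unfolded protein response 4 were higher and 1 lower (median 0.12), with Xbp1, a transcription factor of the response, at 0.38 ± 0.07 (SE, adjusted p = 0.00115), and Chac1, which degrades glutathione, at 0.47 ± 0.14 (SE, adjusted p = 0.0241), the second passing in 9 of 12 fits that left out a library. Of 19 kept immediate-early genes 0 passed (median 0.26), or 3, all higher, with values as deposited.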

How the data were processed

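Expression was measured by RNA sequencing of tibialis anterior muscle. The deposited table holds rlog values, on a log2 scale, made by the authors with DESeq2 1.30.1 on mm10, per the submitters' processing notes. Aligner, counting tool, annotation and use of strand: not given in the sources used here. No counts were given, so depth was unknown and precision rests on the spread between mice. That each age was transformed apart was read from the file: 619 genes stood at exactly 0 across the 12 aged libraries but not across the 12 young ones, and 858 genes the reverse.

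Genes with a mean of at least 8 in both vehicle groups were kept, each library was centred on its median over them, and ages were compared with limma 3.58.1 (R 4.3.3), with an intensity trend, two-sided, Benjamini-Hochberg adjusted over 6482 genes, threshold 0.05. The fit was tested on simulated data with known differences and independent noise. These data held no separate transformation of the ages, so they cannot show whether the p-values here are too small. Replicate numbers did not pair the samples. Symbols were matched to RefSeq for 6391 of the kept genes, and exon overlaps taken from GENCODE.

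Named were the 15 largest rises and falls among large, separated genes, at most 4 members per list and direction among those past the threshold, and a few genes whatever their values; others are said to have been named after their values were seen. Some results that this rule would name are not reported here. The comparison, members and lists were chosen with earlier results of these data known. Alternatives are another scaling, filter, fold limit, spread model, replicate block and each library left out.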

Additional observations from a re-analysis of the deposited data

Results flagged for a closer look

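In 278 groups of 6 libraries, those of the 139 named and tested genes at each age, 19 held a library whose gap to the nearest of the others was a large part of the group's range (Dixon's test). Chance flags about 1 in 20 groups, and values of 1 library are not independent between genes. Their part in the results was not tested beyond leaving out each library.

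Aged replicate 4 stood low for Nrep, at −0.24 with the others from 0.25 to 0.35, and for Mettl21c, at −1.26 with the others from −0.64 to −0.32. Aged replicate 1 stood apart for Phyhd1 at −1.73, for Nr3c1 at 1.78, where the others reached 1.06, and for Btaf1 at −0.32. Aged replicate 3 was high for Cox7a1 at 1.95 and for Rapsn at −0.23. Aged replicate 2 was low for Rpl4 at 3.60 and aged replicate 6 high for Bnip3l at 1.17.

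Young replicate 3 stood apart most often, high for Col4a2 at 2.97, for Angptl4 at 0.00, where the others lay between −1.04 and −0.71, and for Pdgfrb at 0.81, and low for Fkbp5 at 2.42 and Nctc1 at 0.55. Young replicate 1 was high for Fbxo21 at −1.37 and Dnajb5 at 2.41. Young replicate 4 was high for Cacng1 at 2.74 and low for H19 at 2.47, and young replicate 5 was high for Mettl21c at 1.22.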

How the results depend on the processing

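Scaling moved the counts of small differences and left the large ones nearly as they were. With values as deposited 1829 genes were higher and 650 lower, 13 and 17 of them large and separated, 29 shared with the reported 32; quantile and cyclic loess normalisation, both limma variants, the fit of all 24 libraries and the correction for length and GC content kept each count within 1.5 times the reported one. The filter moved all counts: a mean of at least 6 gave 1981 higher and 1651 lower, with 32 and 46 large and separated, a mean of at least 10 gave 314 and 394, with 3 and 3, and no filter gave 6522 and 4460, with 774 and 423. A limit of 1.5-fold gave 47 and 64 separated genes and 3-fold 1 and 7. Leaving out 1 library gave 765 to 1022 higher and 888 to 1181 lower genes, with 11 to 16 and 19 to 22 large and separated, 29 to 32 of them shared with the 32. The replicate block gave 817 and 905, and 12 and 20 large and separated; same-numbered libraries deviated together in no regular way (correlations of deviations −0.40 to 0.36, and 0 of 6 aged libraries correlated best with its own number), so the number was not taken as a pairing. Among 139 named genes, no setting run turned a called direction; 44 of 1667 values lost their call when a library was left out and 5 of 139 under the replicate block. The depth behind the values is unknown.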

Other observations

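Some genes outside the lists were chosen after their values were seen and are given as values. Rbm3 and Cirbp, which encode cold-inducible RNA-binding proteins, were higher in aged muscle. Rbm3 ranged over 1.10 to 1.34 in aged libraries and 0.22 to 0.49 in young libraries (0.86 ± 0.06, limma adjusted p = 1.18e-06), and Cirbp over −0.09 to 0.17 in aged libraries and −0.76 to −0.43 in young libraries (0.66 ± 0.06, adjusted p = 1.86e-05). Among imprinted non-coding RNAs, H19 was lower and ranged over 1.72 to 2.44 in aged libraries and 2.47 to 3.28 in young libraries (−0.98 ± 0.14, adjusted p = 0.000291), while Meg3 and Rian, both outside the filter and untested, averaged −1.80 ± 0.20 in aged libraries and −0.44 ± 0.20 in young libraries for Meg3 and −3.40 ± 0.22 in aged libraries and −1.71 ± 0.28 in young libraries for Rian (SD, n = 6 each). Nctc1, a non-coding RNA next to H19, was higher (0.64 ± 0.10, adjusted p = 0.000619), and Igf2, the imprinted neighbour of H19, did not pass (0.16 ± 0.10, adjusted p = 0.233, or 0.0339 with no filter on level).

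The filter at 8 was passed in 1 age only by 442 genes, 257 in aged and 185 in young muscle, of which 12 and 17 differed by at least 1 with no overlap. Tmem132b, a membrane protein, ranged over −1.15 to −0.72 in aged libraries and −4.56 to −4.20 in young libraries, and Dkk3, a secreted protein of the Dickkopf family, over −0.85 to 1.29 in aged libraries and −2.70 to −1.59 in young libraries. Ostn (musclin), a peptide secreted by muscle, ranged over −1.88 to −0.92 in aged libraries and −3.73 to −3.01 in young libraries, and Trp63, a p53 family transcription factor, averaged −0.87 ± 0.21 in aged libraries and −2.70 ± 0.28 in young libraries (SD, n = 6 each), as Kcnf1, a potassium channel subunit, averaged −1.69 ± 0.47 in aged libraries and −3.60 ± 0.32 in young libraries. These 5 were chosen by size after their values were seen. In all 5 each aged library lay above each young one, which adds no support, since these values guided the choice. Alas2, Myod1 and Mybph, which also passed in aged muscle alone, differed by 1.65, 1.45 and 1.33, and their groups overlapped.

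Differences of neighbouring genes are given for 2 loci (GRCm38). On chromosome 19, Btaf1 (0.86 ± 0.07, adjusted p = 9.05e-06) and Ide (1.09 ± 0.06) were higher and Fgfbp3, outside the filter, differed by 1.30, while Cpeb3, which lies between Btaf1 and Ide, was at −0.07 ± 0.08 (adjusted p = 0.508). Farther out, Tnks2 was lower (−0.22 ± 0.06, adjusted p = 0.0197, or 0.107 with values as deposited) and Exoc6 higher (0.15 ± 0.04, adjusted p = 0.00703). On chromosome 13, beside Nnt (−1.86 ± 0.14), Paip1 was at −0.06 ± 0.04 (adjusted p = 0.255), and Tmem267 and Ccl28, both outside the filter, were at 0.99 and 1.37. Hmgcs1 (−0.32 ± 0.04, adjusted p = 0.000273) and Zfp131 (−0.21 ± 0.04, adjusted p = 0.0026), the next kept genes, were lower with no overlap between groups. Wdfy1, outside the filter, ranged over −2.10 to −1.77 in aged libraries and −0.67 to −0.49 in young libraries. In the dexamethasone libraries the age differences were 0.90 for Btaf1, 1.16 for Ide, −1.93 for Nnt and −1.54 for Wdfy1. Whether the aged and young mice came from the same substrain or colony was not given, and it cannot be told apart from age.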
